A study of Mus musculus with 4 samples.

Results

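The genes described here are 8 negative regulators of T cell receptor (TCR) signalling, taken by symbol from a table of 16230 genes: Cd5, Cd6, Ubash3a, Cblb, Dgka, Dgkz, Ptpn22 and Ptprc. All 8 were found, and all 8 passed the filter on low values (a mean of at least 1 FPKM over the libraries). RNA came from CD3+CD4+ T cells sorted from spleens of Rag-/- mice with colitis, 8 weeks after the mice had received sorted naive CD4 T cells. The donor cells were CD4creERafl/fl (labelled as lacking ERα, 2 libraries) or ERafl/fl (controls, 2 libraries). Both genotypes thus carry the flanked ERα alleles, and the first also carries a Cre recombinase driven from Cd4, which acts in cells that express or have expressed Cd4. The Rag-/- hosts make no lymphocytes of the T and B lineages but keep myeloid, NK and red cells. The comparison asks which transcripts differ when the transferred T cells lack ERα. Whether the replicate libraries stem from different mice is not in the labels, so the p-values reflect the spread among these libraries alone, which may be technical.

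When a T cell meets its antigen, the kinases Lck and Zap70 phosphorylate the receptor complex and the adaptor Lat, and phospholipase C then releases diacylglycerol, which activates Ras and protein kinase C. The 8 genes act against this chain at different steps. CD5 and CD6 are surface receptors whose tails recruit inhibitory proteins, the phosphatases PTPN22 and UBASH3A act on or near the proximal kinases, CBLB tags signalling proteins with ubiquitin, and the kinases DGKα and DGKζ convert diacylglycerol to phosphatidic acid. Ptprc encodes CD45, which can act in both directions, since it removes the inhibitory as well as the activating phosphates of Lck.

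Each value is an FPKM, a fragment number divided by transcript length and library depth, so levels can be compared between genes. The libraries were shallow, at an estimated 486000 to 544000 fragments in those labelled CD4creERafl/fl and 648000 to 681000 in ERafl/fl controls. Esr1, which encodes ERα, was listed at 0 and had 1.96 FPKM in the libraries labelled CD4creERafl/fl, and had 0.23 FPKM and was listed at 0 in controls. Its highest value was thus in a library labelled CD4creERafl/fl, and a single value per gene cannot show whether the flanked part was missing. T cell markers and markers of other cells also moved with the labels. The 18 genes of a T cell restricted list summed to 422 and 371 FPKM in the libraries labelled CD4creERafl/fl, against 1871 and 1491 FPKM in controls. All 18 were lower without overlap between the groups, against 25.7% of all genes tested, and none was listed at 0 in any library. The 17 macrophage and monocyte markers summed to 3085 and 3513 FPKM, against 112 and 545 FPKM, and 5 of them were listed at 0 in control 1. The dendritic cell list summed to 4092 and 4196 FPKM, against 129 and 1319 FPKM. Cd74 alone gave 2406 and 2251 FPKM of the first 2 sums, so they say little of the other genes. Of the 12 genes in that list, 9 were higher and 1, Xcr1, was lower without overlap. Over all genes tested these shares were 23.2% and 25.7%. The erythroid list summed to 6525 and 5116 FPKM, against 216 and 8218 FPKM, so control 1 alone was low. The part of these markers in the results on the 8 regulators was not tested. In bulk RNA, fewer cells of a type and less RNA per cell cannot be told apart.

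Of the 8 regulators, 7 had lower values in both libraries labelled CD4creERafl/fl than in both controls, and Ptprc had nearly equal means. The order ran from Cd6 and Cd5, at 11.3% and 13.0% of the control mean, through Ubash3a (14.2%), Dgka (19.9%), Cblb (35.1%), Dgkz (40.8%) and Ptpn22 (63.3%) to Ptprc (99.4%). The median log2 fold change over the 8, taken on log2(FPKM + 1), was -1.74, against -0.07 over all 12896 genes tested. In limma with Benjamini-Hochberg adjustment over all genes, 0 of the 8 passed an adjusted p under 0.05, where 0.0543% of all genes did. At an unadjusted p under 0.05, 5 of the 8 were lower, against 6.80% of all genes tested. Non-overlapping lower values were found for 7 of the 8, against 25.7% of all genes tested. With voom weights on fragments recovered for genes with 1 transcript, all 4 members tested had negative log2 fold changes. Cd5 and Ubash3a passed an adjusted p under 0.05 in that limma fit, where 0.327% of genes were called lower. Dgka (-2.18) and Cblb (-1.60) did not pass.

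**Figure D1:**
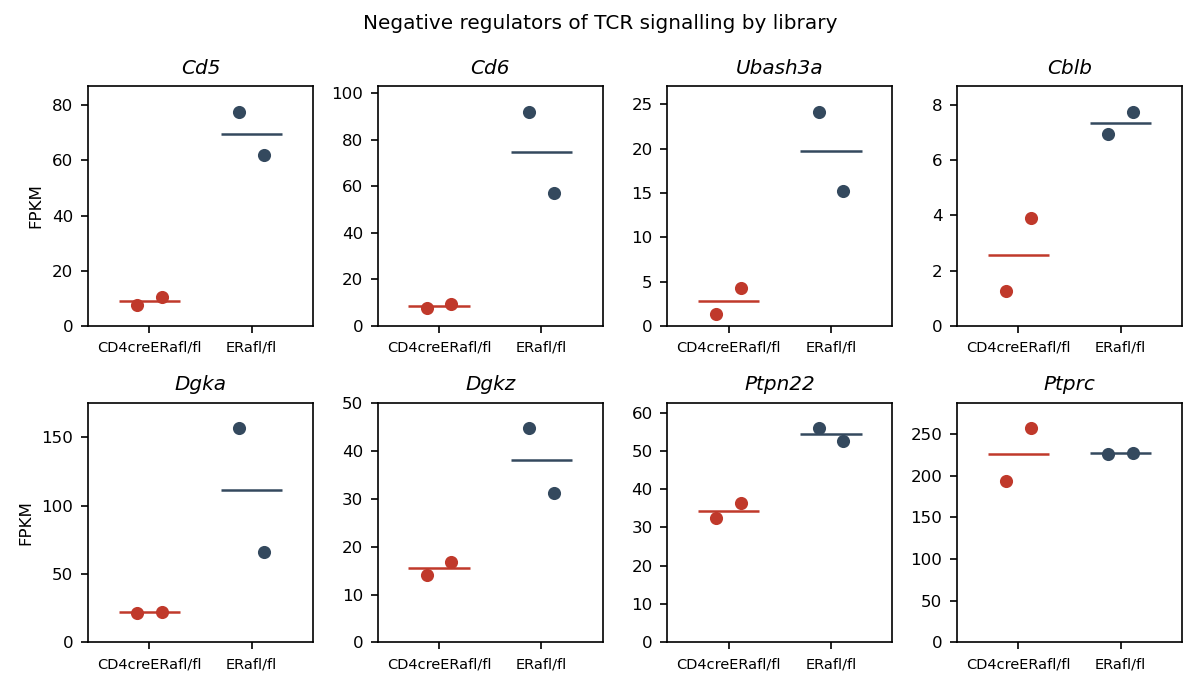
FPKM of each of the 8 regulators (linear axes from 0, scaled per gene), with 1 point per library and a horizontal line at the mean of each group (2 libraries labelled CD4creERafl/fl on the left, 2 ERafl/fl controls on the right). In 7 panels both points on the left lie below both on the right, while for Ptprc the points of 194 and 257 FPKM enclose the controls at 226 and 227 FPKM.

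The surface receptors CD5 and CD6 had the lowest values relative to control. Cd5 (NCBI gene 12507; GRCm38 chromosome 19, 10718107 to 10739026) encodes a scavenger-receptor cysteine-rich protein whose level on T cells is set by the strength of TCR signals during development. It had 7.72 and 10.4 FPKM in the libraries labelled CD4creERafl/fl and 77.7 and 61.8 FPKM in ERafl/fl controls. The groups lay far apart, with little spread in either. The log2 fold change was -2.82 ± 0.34 (SE; adjusted p = 0.082 in limma), and with voom weights it was -2.84 ± 0.46 (SE; adjusted p = 0.0283). Cd6 (NCBI gene 12511; chromosome 19, 10789339 to 10830062), a close relative of Cd5 and a receptor for ALCAM, had 7.49 and 9.41 FPKM, against 92.0 and 57.2 FPKM. The controls differed from each other by 1.61 times, and both stood above the other group. Its log2 fold change was -2.97 ± 0.38 (SE; adjusted p = 0.0929 in limma). Cd5 and Cd6 are neighbours on the minus strand, 50339 bases apart with no annotated protein-coding gene between them, and their levels were close in each library. No 50-base stretch of either gene's annotated transcripts was found in transcripts of another gene. An estimated 7.8 and 11.7 fragments stood behind Cd5 in the libraries labelled CD4creERafl/fl, against 109 and 82.8 in controls.

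Ubash3a (NCBI gene 328795; chromosome 17, 31207868 to 31259681), a lymphoid protein with ubiquitin-binding, SH3 and phosphatase domains, had 1.35 and 4.23 FPKM in the libraries labelled CD4creERafl/fl and 24.2 and 15.2 FPKM in controls. Both groups were spread, and they did not overlap. The log2 fold change was -2.53 ± 0.55 (SE; adjusted p = 0.154 in limma), and with voom weights -2.87 ± 0.57 (SE; adjusted p = 0.0459). Leaving out the first or the second library labelled CD4creERafl/fl gave -1.95 or -3.10. An estimated 5.0 and 17.6 fragments lay behind the lower values, against 126 and 75.3 in controls. Cblb (NCBI gene 208650; chromosome 16, 52031230 to 52208047), the ubiquitin ligase that sets the need for CD28 costimulation, was the least abundant of the 8. It had 1.25 and 3.92 FPKM in the libraries labelled CD4creERafl/fl and 6.95 and 7.76 FPKM in controls. Its log2 fold change was -1.33 ± 0.55 (SE; adjusted p = 0.325 in limma), and -0.76 or -1.89 when library 1 or library 2 labelled CD4creERafl/fl was left out. Exact 95% Poisson intervals from the estimated fragments, which cover counting error only, were 0.34 to 3.17 and 2.12 to 6.495 FPKM, against 4.65 to 9.72 and 5.27 to 10.8 FPKM. The second library's interval thus overlapped those of the controls.

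Both diacylglycerol kinases were lower without overlap. Dgka (NCBI gene 13139; chromosome 10, 128720131 to 128745084), the calcium-regulated form that is abundant in resting T cells, had 21.7 and 22.6 FPKM in the libraries labelled CD4creERafl/fl and 157 and 65.9 FPKM in controls. The libraries of the first group were nearly equal, while control 1 was 2.38 times control 2. Its log2 fold change was -2.15 ± 0.47 (SE; adjusted p = 0.152 in limma), with -1.53 and -2.77 when control 1 or control 2 was left out. With voom weights it was -2.18 ± 0.46 (SE; adjusted p = 0.0527). Dgka shares 105 exon bases with Pmel on the opposite strand, and whether the authors counted by strand is not stated in the labels. Pmel had 219 and 90.9 FPKM in the libraries labelled CD4creERafl/fl and 512 and 240 FPKM in controls, and its part in the value of Dgka was not tested. Dgkz (NCBI gene 104418; chromosome 2, 91932822 to 91976443), which ends diacylglycerol signals at the activated receptor, had 14.2 and 16.9 FPKM, against 44.8 and 31.3 FPKM. Its log2 fold change was -1.22 ± 0.35 (SE; adjusted p = 0.207 in limma). Dgkz shares 222 exon bases with Gm9821 on the opposite strand.

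The phosphatases PTPN22 and CD45 differed least. Ptpn22 (NCBI gene 19260; chromosome 3, 103856575 to 103912252), which dephosphorylates Lck and Zap70 and is also made in myeloid and B cells, had 32.4 and 36.3 FPKM in the libraries labelled CD4creERafl/fl and 55.9 and 52.7 FPKM in controls. The groups did not overlap, and the libraries of each were close. The log2 fold change was -0.65 ± 0.29 (SE; adjusted p = 0.356 in limma). Ptprc (NCBI gene 19264; chromosome 1, 138062859 to 138175756), expressed on nearly all nucleated blood cells, had 194 and 257 FPKM, against 226 and 227 FPKM. The values of the first group lay on either side of the controls. The log2 fold change was -0.02 ± 0.27 (SE; adjusted p = 0.973 in limma), 0.18 without the first library labelled CD4creERafl/fl and -0.22 without the second. The table gives 1 value for all splice forms of Ptprc, so the isoforms that mark naive and memory T cells were not separated.

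The order of levels within a group also differed between the groups. In the libraries labelled CD4creERafl/fl, Ptprc (225 ± 44.4 FPKM) was followed by Ptpn22 (34.4 ± 2.80), Dgka (22.1 ± 0.66), Dgkz (15.5 ± 1.92), Cd5 (9.06 ± 1.90), Cd6 (8.45 ± 1.36), Ubash3a (2.79 ± 2.04) and Cblb (2.58 ± 1.89; SD, n = 2 each). In controls, Ptprc (227 ± 0.36 FPKM) was followed by Dgka (111 ± 64.3), Cd6 (74.6 ± 24.6), Cd5 (69.8 ± 11.2), Ptpn22 (54.3 ± 2.31), Dgkz (38.0 ± 9.53), Ubash3a (19.7 ± 6.34) and Cblb (7.36 ± 0.57; SD, n = 2 each). The ranges of Cd5 and Cd6 overlapped in either group, as did those of Ubash3a and Cblb in the libraries labelled CD4creERafl/fl. In controls Dgka, whose libraries lay far apart, overlapped both Cd6 and Cd5. Compared within a library, Dgka was above Cd6 and Cd5 in each control. Within each library labelled CD4creERafl/fl, Ubash3a was slightly above Cblb and Cd5 slightly above Cd6.

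Set against Ptprc in the same library, Cd5 stood at 3.98% and 4.05% of its FPKM in the libraries labelled CD4creERafl/fl and at 34.3% and 27.2% in controls. Cd6 stood at 3.86% and 3.66%, against 40.6% and 25.2%. Dgka stood at 11.2% and 8.80%, against 69.2% and 29.0%, and Ptpn22 at 16.7% and 14.1%, against 24.7% and 23.2%. A test of each gene's difference from Ptprc over all genes, chosen after the data were seen, called 0 of the other 7 members in limma, where 0.0698% of genes were called lower. The differences nearest to the threshold were those of Cd5 (-2.80 ± 0.37, SE, adjusted p = 0.0638) and Cd6 (-2.95 ± 0.40, SE, adjusted p = 0.0708) on the log2 scale. At an unadjusted p under 0.05, 6 of the 7 members were lower relative to Ptprc by this measure, against 6.40% of all genes tested. Ptprc was taken as reference when its own log2 fold change was known to be -0.02. The test therefore nearly repeats the one without a reference, where Cd5 had -2.82 and Cd6 -2.97, and is no separate support.

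**Figure D2:**
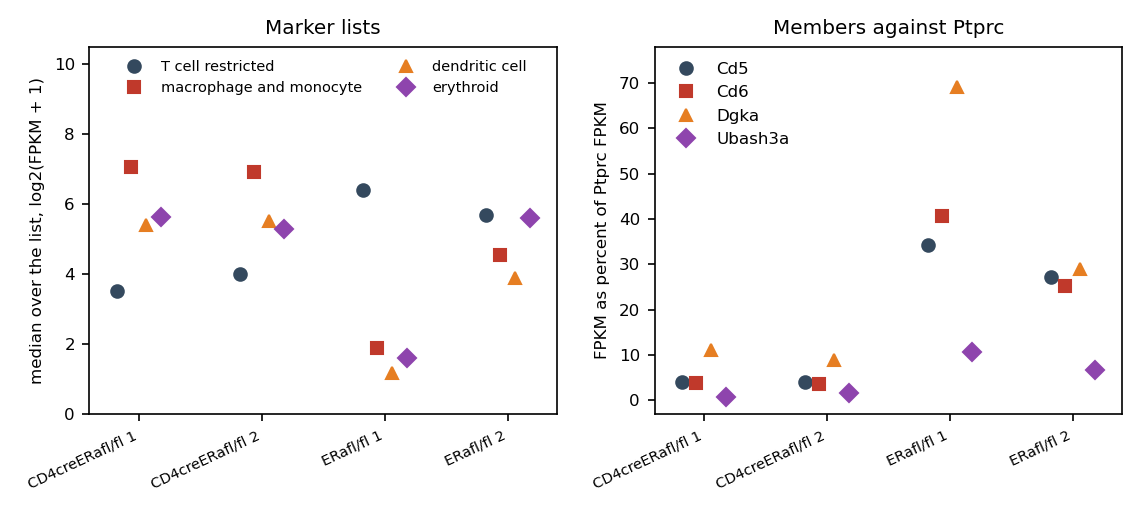
Left, the median of log2(FPKM + 1) over 4 marker lists in each library, and right, the FPKM of Cd5, Cd6, Dgka and Ubash3a as a percent of the FPKM of Ptprc in the same library (1 point per gene and library, offset sideways for legibility). The T cell list was at 3.53 and 4.0 in the libraries labelled CD4creERafl/fl and at 6.40 and 5.69 in controls, the macrophage list at 7.07 and 6.92 against 1.89 and 4.54, and the 4 genes took a smaller percent of Ptprc in the libraries labelled CD4creERafl/fl.

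The signs of 5 of the 8 fold changes turned when the libraries were scaled to the T cell restricted list, which contains none of the 8. This scaling put the median over all genes tested at 1.89 on the log2 scale and called 66.0% of them higher. On this scale Ptprc (2.29 ± 0.30, SE, adjusted p = 0.00611), Ptpn22 (1.62 ± 0.32, SE, adjusted p = 0.00979) and Dgkz (1.0 ± 0.34, SE, adjusted p = 0.0422) rose in limma, the last 2 by less than the median gene. Cblb (0.49 ± 0.58, SE) and Dgka (0.12 ± 0.41, SE) did not pass in limma (adjusted p = 0.477 and 0.811). Cd5 (-0.61 ± 0.34, SE), Ubash3a (-0.57 ± 0.54, SE) and Cd6 (-0.76 ± 0.35, SE) kept a negative sign and did not pass (adjusted p = 0.159, 0.378 and 0.0989). Relative to the mean log2 level of the T cell list in its own library, Cd5 stood at -0.52 and -0.34 in the libraries labelled CD4creERafl/fl and at 0.04 and 0.09 in controls. Dgka stood at 0.86 and 0.70, against 1.05 and 0.18, so its groups overlapped on this measure. Ptprc stood at 3.96 and 4.16, against 1.57 and 1.95.

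**Figure D3:**
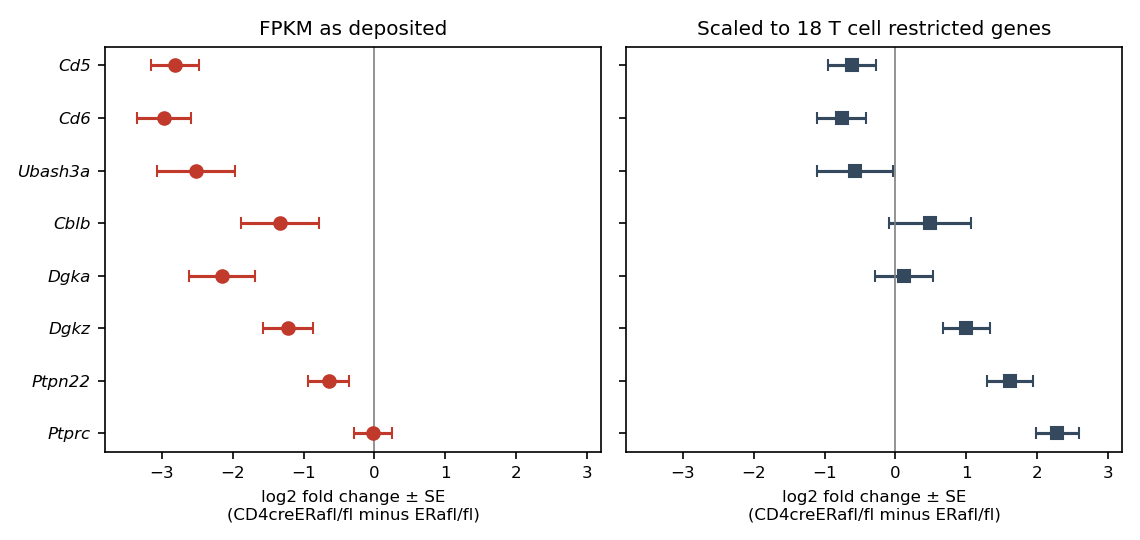
Log2 fold changes (libraries labelled CD4creERafl/fl minus ERafl/fl controls, 2 libraries each) of the 8 regulators on log2(FPKM + 1), with bars of 1 SE from limma, for FPKM as deposited (left) and after scaling each library to 18 T cell restricted genes (right). The points run from -2.97 (Cd6) to -0.02 (Ptprc) on the left and from -0.76 (Cd6) to 2.29 (Ptprc) on the right.

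Promoter sequences are shown for the 2 members called lower with voom weights, Cd5 and Ubash3a, and for Ptprc, whose means were nearly equal. Each window of 300 bases spans an annotated start (RefSeq, GRCm38.p6; all 5′ to 3′ on the gene's own strand). Capitals mark the ETS core AGGAAG on either strand, a motif bound by ETS factors such as ETS1. The windows are chr19:10738925-10739224 (minus strand) for Cd5, chr17:31207816-31208115 (plus strand) for Ubash3a and chr1:138175256-138175555 (minus strand, the upstream of 2 overlapping windows) for Ptprc.
Cd5: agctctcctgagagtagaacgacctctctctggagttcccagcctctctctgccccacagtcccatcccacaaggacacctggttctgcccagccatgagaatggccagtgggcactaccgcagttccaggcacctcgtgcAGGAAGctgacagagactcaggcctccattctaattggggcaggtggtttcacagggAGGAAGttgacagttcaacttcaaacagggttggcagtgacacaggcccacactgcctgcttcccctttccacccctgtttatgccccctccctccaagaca
Ubash3a: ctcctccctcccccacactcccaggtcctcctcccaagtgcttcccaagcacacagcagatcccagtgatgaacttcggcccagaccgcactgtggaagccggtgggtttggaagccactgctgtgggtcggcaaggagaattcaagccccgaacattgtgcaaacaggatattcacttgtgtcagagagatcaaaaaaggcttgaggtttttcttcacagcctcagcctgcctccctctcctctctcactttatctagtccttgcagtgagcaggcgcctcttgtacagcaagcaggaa
Ptprc: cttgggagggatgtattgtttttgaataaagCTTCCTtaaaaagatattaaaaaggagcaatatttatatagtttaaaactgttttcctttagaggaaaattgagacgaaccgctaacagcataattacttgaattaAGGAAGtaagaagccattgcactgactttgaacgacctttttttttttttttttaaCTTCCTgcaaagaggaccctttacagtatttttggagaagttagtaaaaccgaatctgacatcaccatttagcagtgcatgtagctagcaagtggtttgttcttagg
The window of Cd5 held 2 matches, that of Ubash3a 0 and that of Ptprc 3. A promoter entry was matched for 7 of the 8 members, in 13 windows, some of which overlap. At least 1 ETS core was found in 11 of these windows, against 35.4% of all 32851 windows in the table. The 11 windows belong to 6 of the 7 members, and overlapping windows can count the same site again. No share by gene was computed over all promoters, so how unusual the members are was not tested. The RUNX core TGTGGT was found on either strand in 1 member window, of Ptpn22, against 16.8% of all windows. The estrogen response half-site AGGTCA was found on either strand in 1 member window, of Dgka, against 16.3% of all windows. Only the single half-site was searched for, not a pair of them. The E-box CANNTG, which reads the same on both strands, was found in 10 member windows, against 72.3% of all windows. These matches are a description of the letters and do not show binding.

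Most relatives of the 8 genes had a higher rather than a lower mean in the libraries labelled CD4creERafl/fl. Of 17 relatives listed, 14 were in the table and 12 were tested, of which 3 had a lower and 9 a higher mean log2 value, with a median log2 fold change of 0.30. In limma 0 were called (smallest adjusted p = 0.12), and at an unadjusted p under 0.05 0 were lower and 2 higher, against 6.80% and 9.10% of all genes tested. Ubash3b, the more widely expressed partner of Ubash3a, had 3.67 and 1.10 FPKM in the libraries labelled CD4creERafl/fl and 1.32 and 2.77 FPKM in controls. Cbl, the relative of Cblb, had 6.61 and 9.43 FPKM, against 6.42 and 5.27 FPKM. Of the PEST-type phosphatases related to Ptpn22, Ptpn12 had 5.60 and 19.6 FPKM, against 1.79 and 11.3 FPKM, and Ptpn18 had 27.8 and 45.5 FPKM, against 33.6 and 32.4 FPKM. In neither did the groups separate.

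Among the other diacylglycerol kinases, Dgkd had 10.1 and 9.03 FPKM in the libraries labelled CD4creERafl/fl and 16.2 and 12.02 FPKM in controls, and Dgkq had 18.01 and 17.0 FPKM, against 12.9 and 11.3 FPKM. Their log2 fold changes were -0.51 ± 0.38 and 0.50 ± 0.34 (SE; adjusted p = 0.553 and 0.528 in limma), and they were the tested kinases besides the 2 members whose groups did not overlap. Dgke and Dgkg overlapped between the groups, and Dgkh and Dgki were at most 0.90 FPKM in any library. Of the receptor phosphatases set beside Ptprc, Ptprj had 17.9 and 14.4 FPKM, against 0.56 and 4.09 FPKM. The log2 fold change was 2.60 ± 0.66 (SE; limma's adjusted p = 0.18). Ptpra had 10.8 and 9.66 FPKM, against 17.5 and 17.4 FPKM, and Ptpre overlapped. Cd5l, a secreted scavenger-receptor protein of tissue macrophages, had 84.3 and 59.0 FPKM, against 3.52 and 10.3 FPKM. Its log2 fold change was 3.32 ± 0.53 (SE; limma's adjusted p = 0.12). The difference between a member and its relative was not tested.

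**Figure D4:**
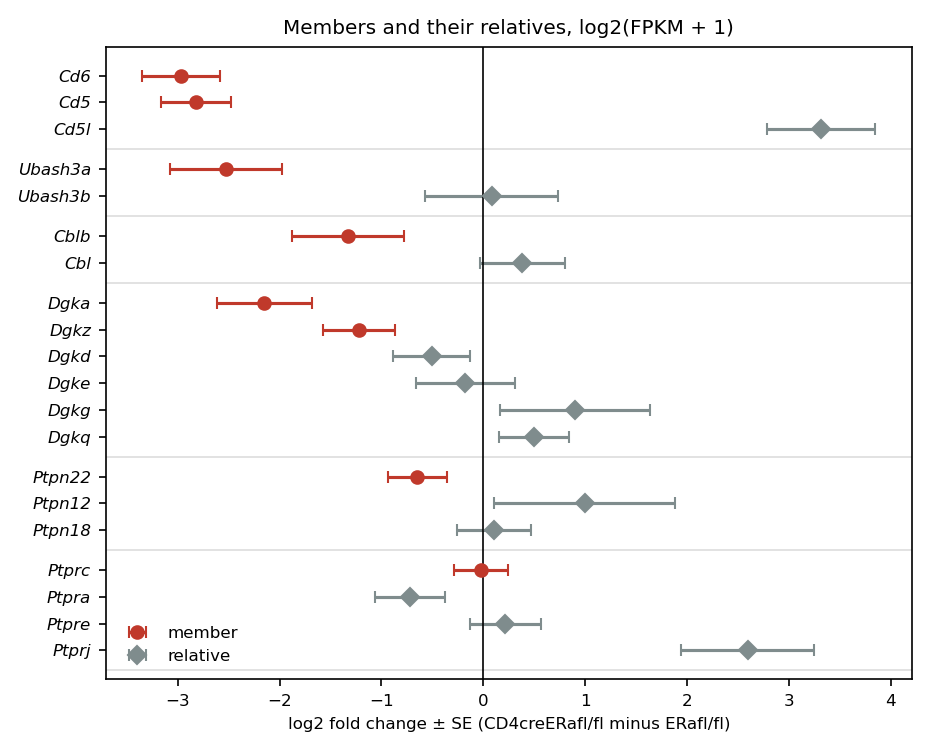
Log2 fold changes on log2(FPKM + 1) (libraries labelled CD4creERafl/fl minus ERafl/fl controls, 2 libraries each) with bars of 1 SE from limma, for the 8 members (circles) and their 12 tested relatives (diamonds), grouped by family. The members other than Ptprc lie left of their relatives, with Cd5 at -2.82 and Cd5l at 3.32.

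Other genes that restrain the same pathway were split. Of 37 listed, 34 were tested, 24 with a lower and 10 with a higher mean log2 value. In limma 0 were called (smallest adjusted p = 0.123), where 0.0543% of all genes were. At an unadjusted p under 0.05 in limma, 9 of the 34 were lower and 2 higher, against 6.80% and 9.10% of all genes tested. Without overlap, 19 of the 34 were lower and 5 higher, against 25.7% and 23.2% of all genes tested, and the median log2 fold change was -0.56. Cish, an inhibitor of cytokine and TCR signals, had 0.71 and 1.28 FPKM in the libraries labelled CD4creERafl/fl and 16.1 and 10.7 FPKM in controls. Inpp4b, a phosphoinositide phosphatase, had 0.48 and 2.15 FPKM, against 13.0 and 11.4 FPKM, and the Ras-restraining Rasal3 had 18.9 and 15.0 FPKM, against 59.6 and 47.1 FPKM. The adaptor gene Lax1 had 7.90 and 11.3 FPKM, against 37.8 and 27.1 FPKM. These 4 were picked as the lower genes of the list with the smallest unadjusted p in limma. That all 4 were lower without overlap follows largely from that choice.

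Ptpn6, which encodes the phosphatase SHP-1 of all blood lineages, pointed the other way. It had 128 and 117 FPKM in the libraries labelled CD4creERafl/fl and 43.9 and 51.5 FPKM in controls. On the log2 scale the difference was 1.34 ± 0.28 (SE; limma's adjusted p = 0.148). Inpp5d, which encodes the lipid phosphatase SHIP1 and is likewise made across blood cells, had 30.8 and 29.1 FPKM, against 16.7 and 16.9 FPKM. Sla2 had 559 and 588 FPKM, against 361 and 483 FPKM, and Pag1, whose product anchors the Lck-inhibiting kinase Csk, overlapped between the groups. The machinery that the 8 regulators act on was lower in 18 of 20 genes without overlap, against 25.7% of all genes tested, with a median log2 fold change of -1.60. In limma 0 of these were called (smallest adjusted p = 0.079), and 12 were lower at an unadjusted p under 0.05, against 6.80% of all genes tested. Zap70 had 4.51 and 8.09 FPKM, against 58.3 and 44.1 FPKM, while Vav1 had 28.9 and 36.2 FPKM, against 32.1 and 32.0 FPKM.

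By distance from the mean profile of the 8 members over the 4 libraries, the closest of 4922 genes with a mean of at least 10 FPKM was Lax1, at a Euclidean distance of 0.06 in centred log2(FPKM + 1). Slain1os (0.12), Ptprcap (0.13), Ass1 (0.15) and Ehd3 (0.17) came next. Ptprcap, which encodes the small protein bound to CD45, had 31.2 and 45.3 FPKM in the libraries labelled CD4creERafl/fl and 133 and 99.6 FPKM in controls. Its values separated the groups where those of Ptprc did not. That follows from its choice by likeness, since the mean profile of the members itself separates the groups. Its log2 fold change was -1.59 ± 0.34 (SE; adjusted p = 0.15 in limma). Likeness over 4 libraries is a description and carries no test.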

How the data were processed

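The authors deposited 1 table of FPKM for 4 libraries (2 per group). The submitters' processing notes name HISAT, Bowtie2, RSEM and mm10, without versions, settings or strand use. RSEM assigns shared fragments by estimate, so an exact 0 is written as listed at 0. Gene positions and 23 symbols turned into dates were taken from GRCm38.p6 by NCBI identifier (16183 matched, 47 not).

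Tests used limma 3.58.1 (R 4.3.3) for genes with a mean of at least 1 FPKM. Values entered as log2(FPKM + 1), which understates changes of low genes, group was fitted alone with a trended empirical Bayes step, and two-sided p-values were adjusted by Benjamini-Hochberg. No exact permutation p is given, since 2 libraries against 2 cannot pass. Depth was estimated from 10187 genes with 1 RefSeq transcript of over 800 bases, by the step that makes FPKM times GENCODE M21 length whole (80.8% to 83.1% of low values within 0.2 of a whole fragment). Fragments of genes with several transcripts use the mean length. The fit was also run on simulated libraries of genes with 1 transcript, with some genes changed at random. In the real libraries whole marker lists moved together, so the simulation does not vouch for the calls made here. Alternatives were the pseudocount, filter, scaling, trend, voom weights, a replicate block and leaving out each library.

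The members and lists were chosen with earlier results of these data known. The named genes were all members and relatives, up to 4 genes per direction by unadjusted p from the restraining and TCR lists, the 2 highest of each marker list and 5 by profile likeness, or fewer where the text needs fewer. Zap70, Cd4, Cd8a, the ligands and genes overlapping members were named outside this rule. B cell, NK cell, neutrophil and CD8 markers had median log2 fold changes of 1.06, 2.26, 1.27 and 0.78, with 0 called in limma and 1, 5, 5 and 0 higher and 1, 0, 0 and 0 lower at an unadjusted p under 0.05 (9.10% of all genes tested were higher and 6.80% lower).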

Additional observations from a re-analysis of the deposited data

How the results depend on the processing

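The 4 libraries, at an estimated 486000 to 681000 fragments, limit precision most for Cblb, Ubash3a, Cd5 and Cd6, whose lower values rest on 4.0 to 17.6 estimated fragments. Of 106 values of single members under 14 other settings, 97 kept direction and side of the threshold and 7 turned sign. The other 2 passed the threshold (Cd5 at -2.84 and Ubash3a at -2.87 with voom weights). Many of the 97 were bound to keep their direction, so their number does not measure stability. The filter, trend and block settings leave fold changes as they are, and leaving out a library cannot turn a member whose groups do not overlap. Scaling to T cell genes turned Ptpn22 (1.62), Cblb (0.49), Dgka (0.12), Dgkz (1.0) and Ptprc (2.29), and the median over members to 0.31, called 3 members, all higher, left 2 members lower without overlap (1.58% of genes were) and called 8553 genes. That follows from its construction, since it multiplies the libraries labelled CD4creERafl/fl by 2.08 to 2.40 and controls by 0.39 to 0.51. Ptprc also turned with median-ratio scaling (0.04) and without the first library labelled CD4creERafl/fl (0.18, range -0.22 to 0.18 over single libraries left out). With voom weights 2 members and 117 genes were called, 4 of 4 tested members were lower without overlap (25.6% of the genes in that test were) and the median was -2.51, over fewer genes. A mean of at least 5 FPKM leaves out Cblb and gave a median of -2.15 and 4 called genes, against 7 with the filter at 1. The difference from Ptprc, chosen after seeing the data, gave -2.13 over the other 7 members and 11 called genes. Leaving out single libraries gave medians from -2.12 to -1.46, 0 called members and 0 called genes (1234 to 2042 at an unadjusted p under 0.05). The 7 to 8 members then lower without overlap say nothing of stability, since leaving out a library cannot create overlap, and 36.0% to 43.0% of all genes were lower without overlap there. A pseudocount of 0.1, no filter or no trend also called 0 genes (1813, 2190 and 1996 at an unadjusted p under 0.05), and the cause was not tested. Equal library numbers did not deviate together over the genes as a whole (r = -0.002 across 12896 genes). One such correlation cannot show whether they were handled together. A replicate block called 0 genes (1888 at an unadjusted p under 0.05) and 0 members.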

Other observations

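Of 6 genes listed as ligands or partners of the regulators, 5 were tested and 0 were called in limma, with 3 lower at an unadjusted p under 0.05 (Ptprcap, Cd4 and Cd2; 6.80% of all genes tested were). For the ligands found on other cells the groups overlapped. Cd72, a B cell and myeloid protein reported to bind CD5, had 62.7 and 85.7 FPKM in the libraries labelled CD4creERafl/fl and 87.9 and 65.7 FPKM in controls. Alcam, the ligand of CD6, had 3.57 and 8.20 FPKM in the libraries labelled CD4creERafl/fl, and in controls was listed at 0 in the first and had 5.08 FPKM in the second. Cdcp1, the other known ligand of CD6, had 1.03 FPKM in the first library labelled CD4creERafl/fl and was listed at 0 in the other libraries. Cd4, a marker of the sort, had 52.6 and 52.4 FPKM, against 155 and 128 FPKM, and Cd8a had 26.1 and 14.1 FPKM, against 12.6 and 8.20 FPKM.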
